A study of Mus musculus with 228 samples.

Results

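Immediate early genes are the genes a cell transcribes within minutes of a stimulus, before any new protein has been made. The group described here holds 10 such genes of 46331 named genes in the deposited table, taken by symbol: Fos, Fosb, Jun, Junb, Egr1, Nr4a1, Nr4a2, Arc, Klf4 and Ier2. RNA sequencing of 10 tissues gave 225 libraries, all from C57BL/6N mice that had been put on one of 5 light-dark cycles at 10 weeks of age and kept there for 42 days. In 5 groups, labelled ABX and called antibiotics here, the mice drank water with a cocktail of broad-spectrum antibiotics. In the other 5, labelled CD and called chow, they drank sterilised water without it. Both diets had the same irradiated pellets, and each mouse was caged alone. The cycles were LD0/24 (0 h light and 24 h dark), LD8/16 (8 h light and 16 h dark), LD12/12 (12 h light and 12 h dark), LD16/8 (16 h light and 8 h dark) and LD24/0 (24 h light and 0 h dark). Antibiotics libraries came from liver, hypothalamus and colon, and chow libraries also from jejunum, ileum, cecum, inguinal fat, mammary gland, spleen and thymus. The labels give the jejunum, ileum, cecum and colon samples as epithelium. Liver had 6 libraries per diet and cycle, and every other tissue had 3. The sex of the mice and the hour at which tissue was taken are not given in the sources used here. Nothing there says that the libraries of a group came from separate mice, so p-values measure only the spread between these libraries, which may be technical.

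The products of these genes are mostly transcription factors. Fos and Fosb proteins pair with Jun or Junb to form AP-1, a factor that binds DNA only as a dimer. Egr1 and Klf4 are zinc finger factors, Nr4a1 and Nr4a2 are nuclear receptors that act without a known ligand, Ier2 is a small nuclear protein, and Arc is a protein of synapses that controls the removal of glutamate receptors. Their promoters are switched on by factors already present in the cell, among them CREB and the serum response factor with its Elk partners, which kinases such as ERK and p38 activate. In brain, Fos and Arc RNA mark neurons that were recently active, and a light pulse at night induces Fos in the suprachiasmatic nucleus of the hypothalamus. In liver these genes are known to be induced after partial removal of the organ, by inflammatory signals and by handling of the tissue.

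The promoters of 7 of the 10 genes were matched in a RefSeq table for build GRCm38.p6, which gives 250 bases before and 50 bases after each gene's start. They are printed here for Fos and Jun, which fell in liver under antibiotics, and for Nr4a2 and Klf4, which rose there, 5′ to 3′ on the gene's own strand. Capitals mark TGACG or its reverse complement CGTCA, the core of the site that CREB binds. The windows are chr12:85473640-85473939 on the plus strand for Fos, and on the minus strand chr4:95052173-95052472 for Jun, chr2:57123954-57124253 for Nr4a2 and chr4:55532426-55532725 for Klf4.
Fos: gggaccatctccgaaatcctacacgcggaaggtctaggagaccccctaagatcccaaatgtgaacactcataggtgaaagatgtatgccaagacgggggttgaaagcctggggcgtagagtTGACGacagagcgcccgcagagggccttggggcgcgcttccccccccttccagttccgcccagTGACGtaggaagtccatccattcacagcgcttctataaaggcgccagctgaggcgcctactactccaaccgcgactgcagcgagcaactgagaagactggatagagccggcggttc
Jun: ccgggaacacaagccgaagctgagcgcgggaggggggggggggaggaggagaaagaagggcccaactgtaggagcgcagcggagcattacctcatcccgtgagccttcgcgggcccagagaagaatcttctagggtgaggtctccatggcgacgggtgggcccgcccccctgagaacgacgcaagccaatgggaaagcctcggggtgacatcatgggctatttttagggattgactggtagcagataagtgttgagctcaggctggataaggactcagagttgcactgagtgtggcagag
Nr4a2: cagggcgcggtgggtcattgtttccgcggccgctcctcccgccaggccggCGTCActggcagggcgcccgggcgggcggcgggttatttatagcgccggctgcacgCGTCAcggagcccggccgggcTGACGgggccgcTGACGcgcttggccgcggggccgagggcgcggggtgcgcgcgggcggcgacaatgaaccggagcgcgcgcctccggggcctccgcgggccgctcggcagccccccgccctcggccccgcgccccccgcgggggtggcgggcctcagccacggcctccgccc
Klf4: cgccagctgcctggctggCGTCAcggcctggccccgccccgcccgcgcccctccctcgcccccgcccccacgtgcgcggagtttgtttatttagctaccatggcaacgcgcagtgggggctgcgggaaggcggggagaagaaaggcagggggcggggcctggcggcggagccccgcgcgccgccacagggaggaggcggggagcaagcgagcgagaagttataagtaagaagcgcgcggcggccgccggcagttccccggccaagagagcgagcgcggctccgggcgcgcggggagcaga
The Fos window held 2 TGACG matches, whose first bases lay 129 and 66 bases before the start, and a TATAAA match 33 bases before it. The Nr4a2 window held 4 TGACG matches and Klf4 held 1, whereas Jun held 0. Among the promoters not printed, Nr4a1 had 4 matches, Fosb 1 and Junb 1. On either strand, 20.8% of all 32851 promoters in the table held TGACG and 13.6% held TATAAA. None of the 7 windows held the longer CREB site TGACGTCA (1.79% of all promoters), the AP-1 site TGACTCA (5.2%) or a CArG box, the site of the serum response factor (1.63%). The TGACG search would also count a TGACGTCA match. A match is a description of these letters and shows no binding. Arc, Egr1 and Ier2 are named only.

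Some libraries stood apart. The 225 libraries had a median total of 87708416 estimated counts, between 7200822 in a mammary gland library and 170140840 in a hypothalamus library. In 12 libraries the share of mitochondrially encoded RNA was 0% or more than 3 times the median of their tissue, and values are given with and without these where a result rests on them. They were 6 of the 60 liver libraries (5 chow and 1 antibiotics), 2 each in ileum, jejunum and spleen, and none elsewhere. The antibiotics liver library, LD0/24 replicate 1, had 0 counts on chromosomes 18, 19 and X, so its Egr1 value of 0 stands for a missing chromosome. Mitochondrial RNA was high throughout mammary gland, with a median of 86.4%, and colon, with 50.8%, against 5.66% in liver. An antibiotics colon library, LD8/16 replicate 1, had 4225 genes with counts and 0 CPM, counts per 1000000 counts, for Fos, Fosb, Egr1, Nr4a1, Nr4a2 and Ier2. The defining markers of each tissue were present at the median of that tissue, but mammary epithelial markers summed to 2.16 to 771200 CPM in inguinal fat and to 10.9 to 215900 CPM in mammary gland. In samples labelled epithelium, smooth muscle markers summed to 188 to 22490 CPM in ileum and to 296 to 38420 CPM in chow colon. In bulk tissue, fewer cells of a type and less RNA per cell cannot be told apart. All 10 genes passed the filter on low counts in 9 tissues and 8 passed in mammary gland, where Fosb and Arc were not tested.

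In liver, the AP-1 genes and Egr1 were lower under antibiotics than on chow, and Nr4a2 and Klf4 were higher. Of the 10 genes, 6 fell (Fos, Fosb, Jun, Junb, Egr1 and Ier2) and 2 rose, in an edgeR quasi-likelihood fit averaged over the 5 cycles with Benjamini-Hochberg adjustment over all genes and a threshold of 0.05. Across the 18971 genes tested, the same rule called 29.3%, of which 17% of all genes were lower and 12.3% higher. The median log2 fold change of the 10 was -0.57, against -0.01 over all genes tested. Without the 6 liver libraries of unusual mitochondrial share, 36% of genes were called (16.6% lower and 19.4% higher), and 5 of the 10 remained: Fos, Jun and Egr1 fell and Nr4a2 and Klf4 rose. Neutrophil markers moved with this comparison, since 5 of 5 fell with a median log2 change of -5.23 and their sum ran from 0.287 to 4.05 CPM under antibiotics, against 2.12 to 482 CPM on chow, with 3 of the 5 markers at a median of 0 under antibiotics. Red blood cell markers fell in 5 of 5, with sums of 282 to 1008 CPM against 483 to 4273 CPM on chow. Smooth muscle markers rose in 4 of 5, with sums of 5.12 to 88.4 CPM against 4.75 to 24.6 CPM. Their part in the result was not tested.

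**Figure D1:**
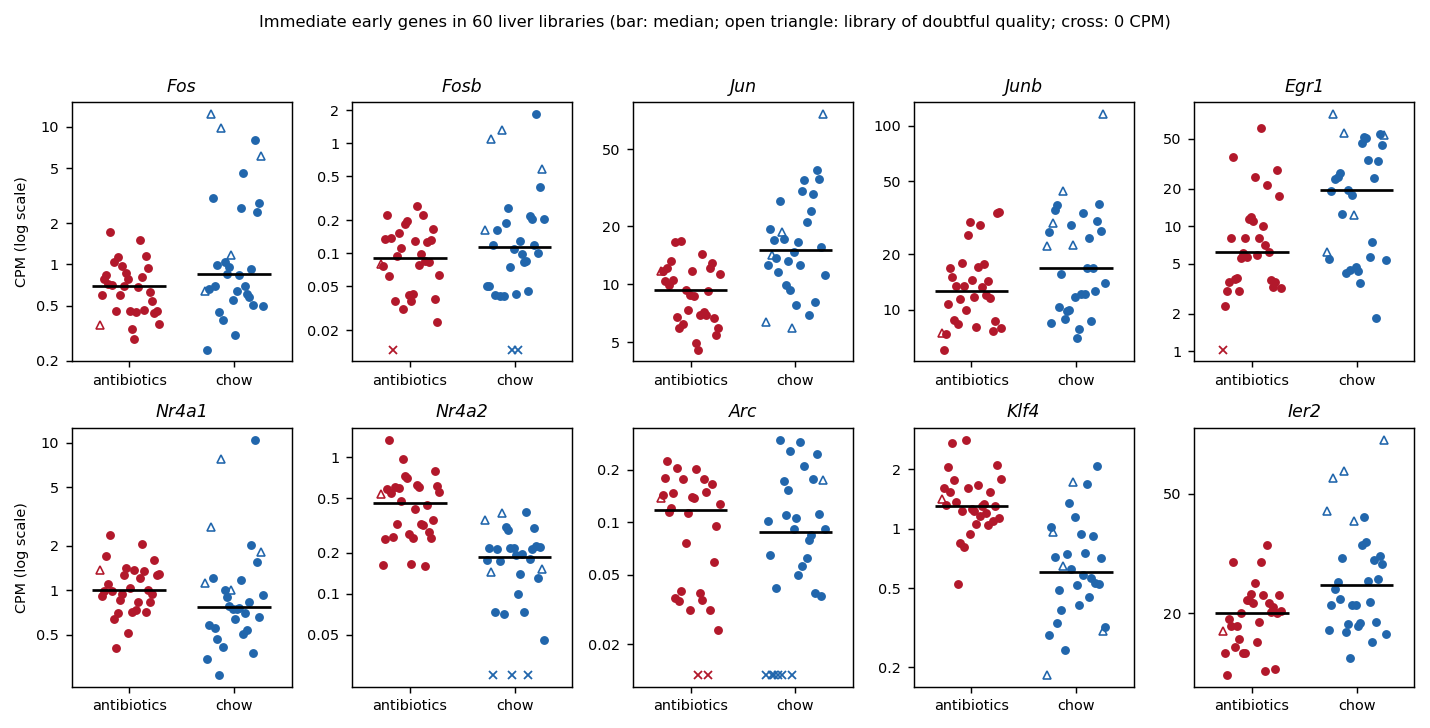
Level of each gene in every liver library, in CPM on a log axis, antibiotics left of chow, with all cycles together. Points are libraries, 30 per diet, bars are medians, open triangles are the 6 libraries of unusual mitochondrial share, and crosses mark 0 CPM. Chow libraries reach 12.4 CPM of Fos, against at most 1.71 CPM under antibiotics, and the antibiotics median of Nr4a2, 0.462 CPM, lies above every chow library.

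Among the AP-1 genes, Fos ran from 0.29 to 1.71 CPM in the 30 antibiotics livers with a median of 0.694 CPM, against 0.241 to 12.4 CPM with a median of 0.847 CPM in the 30 chow livers. The groups overlapped over the whole antibiotics range, and the highest chow libraries lay far above it. Fos averaged 0.729 ± 0.337 CPM under antibiotics and 2.2 ± 3.04 CPM on chow (SD, n = 30 each), a log2 fold change of -1.43 ± 0.31 (SE, adjusted p = 0.000334). The 5 chow libraries with a high mitochondrial share averaged 6.04 CPM, and without the libraries of unusual share the change was -0.72 (adjusted p = 0.018). By limma-voom, which weights single libraries differently, it was -0.68 and did not pass (adjusted p = 0.0953). Jun ran from 4.57 to 16.7 CPM with a median of 9.31 CPM under antibiotics, against 5.90 to 76.2 CPM with a median of 15.1 CPM on chow. Its groups overlapped, but only 3 of 30 antibiotics libraries lay above the chow mean of their own cycle. Its log2 fold change was -0.93 ± 0.16 (adjusted p = 1.54e-05) and -0.87 without the libraries of unusual share.

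Junb, a weaker activator than Jun, ran from 6.07 to 34.1 CPM with a median of 12.7 CPM under antibiotics, against 7.02 to 116 CPM with a median of 16.8 CPM on chow. The groups overlapped, and the 5 chow libraries with a high mitochondrial share averaged 46.9 CPM. The log2 fold change of Junb was -0.58 ± 0.20 (adjusted p = 0.0244), and it did not pass without those libraries (-0.27, adjusted p = 0.285), by limma-voom (adjusted p = 0.084), or without chow LD8/16 replicate 3 or LD24/0 replicate 5 alone (up to adjusted p = 0.0734). Fosb, the close relative of Fos, was near the floor of detection, with a median of 9.5 estimated counts per liver library and 0 in 3 libraries. It had a median of 0.09 CPM and a highest value of 0.268 CPM under antibiotics, against 0.113 CPM and 1.84 CPM on chow. Its log2 fold change of -0.98 ± 0.36 (adjusted p = 0.0332) was lost without the libraries of unusual share (-0.36, adjusted p = 0.406), by limma-voom (adjusted p = 0.32), without the filter on low counts (adjusted p = 0.0526), and without any 1 of chow LD0/24 replicate 4, LD8/16 replicate 3, LD12/12 replicate 6 and LD24/0 replicate 2 (up to adjusted p = 0.133).

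Egr1 ran from 0 to 60.9 CPM with a median of 6.21 CPM under antibiotics, against 1.86 to 79 CPM with a median of 19.4 CPM on chow. Both groups spread widely and overlapped, and 3 of 30 antibiotics libraries exceeded the chow mean of their cycle. The log2 fold change was -1.25 ± 0.37 (adjusted p = 0.00794), and -0.93 without the libraries of unusual share (adjusted p = 0.036). Ier2 ran from 12.5 to 33.8 CPM with a median of 20 CPM under antibiotics, against 14.2 to 75.8 CPM with a median of 24.8 CPM on chow. The groups overlapped, and the 5 chow libraries with a high mitochondrial share held 40.5 to 75.8 CPM. The log2 fold change was -0.55 ± 0.13 (adjusted p = 0.00133), and it did not pass without those libraries (-0.23, adjusted p = 0.0635).

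The nuclear receptor Nr4a2 went the other way. It ran from 0.16 to 1.35 CPM with a median of 0.462 CPM under antibiotics, against 0 to 0.397 CPM with a median of 0.184 CPM on chow. The ranges overlapped, but 29 of 30 antibiotics libraries lay above the chow mean of their cycle, and the mean was higher in 5 of 5 cycles. Nr4a2 averaged 0.484 ± 0.262 CPM under antibiotics and 0.180 ± 0.108 CPM on chow, a log2 fold change of 1.42 ± 0.27 (adjusted p = 4.97e-05) that became 1.5 without the libraries of unusual share. The level was low, with a median of 25 estimated counts per liver library. Klf4 averaged 1.43 ± 0.507 CPM under antibiotics and 0.741 ± 0.467 CPM on chow. It ran from 0.528 to 2.83 CPM, against 0.183 to 2.09 CPM on chow, so that the ranges overlapped while 29 of 30 antibiotics libraries exceeded the chow mean of their cycle. Its log2 fold change was 0.94 ± 0.18 (adjusted p = 6.08e-05), and 0.99 without the libraries of unusual share. Nr4a1, the relative of Nr4a2, did not pass, with 0.406 to 2.37 CPM under antibiotics and 0.267 to 10.5 CPM on chow (-0.27 ± 0.26, adjusted p = 0.467). Arc had at most 0.223 CPM under antibiotics and 0.297 CPM on chow, was at 0 in 8 of 60 libraries, and did not pass (0.07 ± 0.36, adjusted p = 0.906).

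Taken cycle by cycle, a comparison added after the data were seen, 5 of 50 tests in liver passed. At LD0/24, where 13.7% of genes were called, Klf4 (log2 fold change 1.60, adjusted p = 0.00641) and Nr4a2 (1.85, adjusted p = 0.0358) rose and Junb fell (-1.32, adjusted p = 0.0452). Jun fell at LD16/8 (-1.57, adjusted p = 0.0102) and LD24/0 (-1.77, adjusted p = 0.00588), where 2.07% and 0.912% of genes were called. Libraries of unusual mitochondrial share enter the calls at LD0/24 (chow replicates 1 and 4, antibiotics replicate 1) and at LD24/0 (chow replicate 5). None is at LD16/8. Tests of single cycles without these libraries are not given here. At LD8/16 and LD12/12, edgeR called 0 of the 10 genes, against 1.94% and 1.44% of all genes; 5 genes at LD8/16 and 1 at LD12/12 had an unadjusted p under 0.05, and DESeq2 and limma-voom called 0 in each. Whether the antibiotics effect depended on the cycle was tested as an interaction in liver, hypothalamus and colon. None of the 30 tests passed in edgeR, where 7 had an unadjusted p under 0.05, and DESeq2 and limma-voom also called 0.

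Other genes of the immediate early programme in liver were taken from a list of 58, of which 52 were tested. Of these, 12 fell and 7 rose, where 29.3% of all genes were called, with a median log2 fold change of -0.14, against -0.01 over all genes, and 10 fell and 10 rose without the libraries of unusual share. The stress factor Atf3 averaged 1.75 ± 0.906 CPM under antibiotics and 4.36 ± 3.77 CPM on chow and fell by 1.3 on the log2 scale (adjusted p = 1.32e-06). Also lower were Myc, a driver of growth and proliferation (3.43 CPM against 6.34 CPM on chow), Btg2, an inhibitor of proliferation (10.2 CPM against 17.1 CPM), the kinase gene Plk2 (6.94 CPM against 10.2 CPM) and the small Maf factor Mafk (11.9 CPM against 17 CPM). Gadd45b, induced by stress, was at 2.53 CPM against 5.04 CPM on chow, and its fall by 1.00 on the log2 scale (adjusted p = 0.000648) shrank to -0.42 and did not pass without the libraries of unusual share (adjusted p = 0.059). Id1, an inhibitor of helix-loop-helix factors, averaged 14 CPM under antibiotics and 7.33 CPM on chow and rose by 0.92 (adjusted p = 4.14e-05), and Btg1, a relative of Btg2, rose by 0.51 (adjusted p = 0.000994). Of 24 genes for the regulators upstream, all tested, 4 rose and 1 fell, a smaller share than the 29.3% of all genes called, with a median of 0.10, and 8 rose and 3 fell without the libraries of unusual share. Creb1, which encodes CREB, averaged 13.2 ± 2.35 CPM under antibiotics and 9.60 ± 2.65 CPM on chow (log2 fold change 0.47, adjusted p = 2.65e-05). Its relative Atf1 rose by 0.27 (adjusted p = 0.00835), Mapk8, the gene of the kinase JNK1, rose by 0.19 (adjusted p = 0.00643), and Rps6ka1, a kinase gene downstream of ERK, fell by 0.45 (adjusted p = 5.42e-05).

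**Figure D2:**
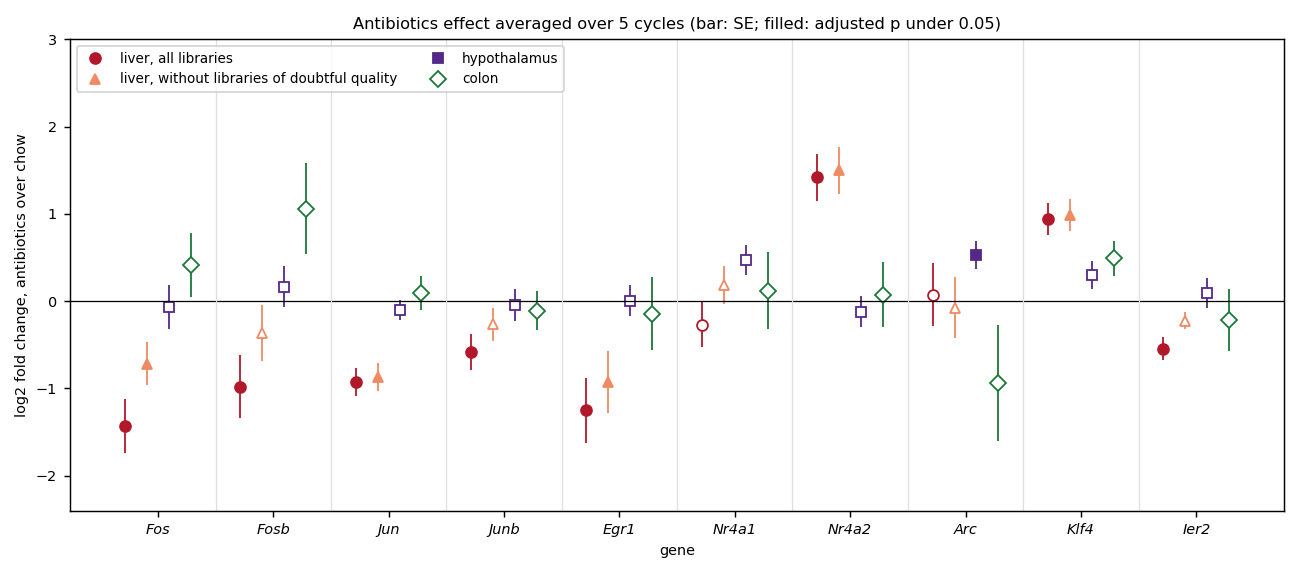
Log2 fold change of each gene, antibiotics over chow, with its standard error as bars, in liver, hypothalamus and colon. Filled points passed the adjusted threshold of 0.05. Liver is shown with all libraries and without those of unusual mitochondrial share, called doubtful quality in the legend. In liver 8 genes pass, Fos at -1.43 and Nr4a2 at 1.42 among them, and in hypothalamus Arc passes at 0.53.

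In hypothalamus, 1 of the 10 genes passed between antibiotics and chow, against 13.3% of the 24557 genes tested (7.94% lower and 5.36% higher). The median log2 fold change of the 10 was 0.05, against 0.02 over all genes. Arc averaged 20.7 ± 15.9 CPM under antibiotics and 13.1 ± 3.42 CPM on chow (SD, n = 15 each) and rose by 0.53 ± 0.16 on the log2 scale (adjusted p = 0.0313). At LD12/12 the antibiotics libraries had 31.3, 74.6 and 17 CPM of Arc, against 9.36, 16.6 and 11.6 CPM in chow libraries. Every antibiotics library there exceeded every chow library of that cycle. How many of all genes did so is not given here, and 0.00407% were called between the diets at LD12/12. Over all cycles the groups overlapped in Arc, and 10 of 15 antibiotics libraries lay above the chow mean of their cycle. Antibiotics LD12/12 replicate 2 also held the highest hypothalamic value of 7 of the 10 genes (Fosb, Jun, Egr1, Nr4a1, Nr4a2, Arc and Klf4). Without it the change in Arc was 0.39 and did not pass (adjusted p = 0.0526). The call was lost without any 1 of 9 of the 30 libraries, with adjusted p between 0.00817 and 0.0589 over all 30, and by limma-voom (adjusted p = 0.0737).

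The other hypothalamic genes did not pass. Nr4a1 ran from 10.7 to 55.3 CPM with a median of 19.2 CPM under antibiotics, against 10.3 to 25.8 CPM with a median of 12.6 CPM on chow (log2 fold change 0.47 ± 0.17, adjusted p = 0.068). Its mean was higher under antibiotics in 5 of 5 cycles, and DESeq2 called it. Fos ran from 9.8 to 60.7 CPM with a median of 26.1 CPM under antibiotics, against 13 to 67.3 CPM with a median of 23.3 CPM on chow (-0.07 ± 0.25). The ranges were almost the same. Klf4 had a log2 fold change of 0.30 (adjusted p = 0.209), and the remaining 6 genes lay between -0.12 and 0.17. Of the 58 other immediate early genes, all tested here, 7 rose and 3 fell, close to the 13.3% of all genes called, with a median of 0.09, against 0.02 over all genes. The rises with the smallest adjusted p were those of Ier5l (8.57 CPM under antibiotics against 5.96 CPM on chow) and Nfkbiz, a regulator of NF-kB (4.21 CPM against 2.97 CPM). Rgs2, which dampens G protein signalling, fell to 84.9 CPM under antibiotics, against 106 CPM on chow, and Bdnf, a growth factor of neurons, fell to 20.1 CPM, against 25.8 CPM. Jund, a further Jun gene, rose by 0.23 (adjusted p = 0.0125), and Myc fell by 0.45 (adjusted p = 0.0111). Of the 24 upstream regulators, 2 rose and 1 fell, again close to the 13.3% of all genes. Crebbp, a coactivator of CREB, rose by 0.20 (adjusted p = 0.00307), Map2k2, whose product activates ERK, rose by 0.27 (adjusted p = 0.0309), and Elk1 fell by 0.43 (adjusted p = 0.00509). Several marker lists moved with this comparison in hypothalamus. Neutrophil markers fell in 5 of 5, with a median log2 change of -2.21 and sums of 0.281 to 5.16 CPM under antibiotics, against 2.83 to 19.7 CPM on chow. Red blood cell markers fell in 3 of 5, with sums of 557 to 2088 CPM, against 759 to 10090 CPM on chow. Heat shock genes, read as a sign of RNA quality, fell in 2 of 5, with sums of 1976 to 2627 CPM, against 2549 to 3411 CPM on chow. Liver markers rose in 3 of 3 that were tested, with sums of 3.46 to 1349 CPM under antibiotics, against 1.71 to 19.4 CPM on chow. Small bowel markers rose in 2 of 4, with sums of 0.885 to 12 CPM, against 0.536 to 2.03 CPM on chow. Their part in these results was not tested.

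In colon, edgeR called 0 of the 10 genes between antibiotics and chow, against 3.21% of the 23717 genes tested. At an unadjusted p under 0.05 there was 1 gene, and DESeq2 and limma-voom called 0, against 8.09% and 4.44% of all genes. The median log2 fold change of the 10 was 0.08, against -0.02 over all genes. Klf4, which in the gut is known from differentiated epithelial cells, ran from 64.1 to 481 CPM with a median of 231 CPM under antibiotics, against 58.9 to 290 CPM with a median of 125 CPM on chow (log2 fold change 0.49 ± 0.21, adjusted p = 0.248). Fosb exceeded the mean of the chow libraries on the same cycle in 12 of 15 antibiotics libraries and ran from 0 to 13 CPM, against 0.2 to 4.57 CPM on chow (1.06 ± 0.52, adjusted p = 0.374). Fos ran from 0 to 189 CPM under antibiotics, against 16.7 to 86.6 CPM on chow (0.41 ± 0.37, adjusted p = 0.818). The antibiotics libraries spread more widely than the chow libraries, and the groups overlapped for all 3 genes. Large bowel markers had a median sum of 1535 CPM under antibiotics, against 8683 CPM on chow, with 2 of 5 called higher and 2 lower. Smooth muscle markers summed to 21.4 to 31070 CPM under antibiotics, against 296 to 38420 CPM on chow, with 0 of 5 called. Their part in these results was not tested.

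The antibiotics effects of liver differed from those of the other tissues for some genes, tested as the difference of the log2 fold changes in a joint fit. For liver minus hypothalamus, where 3.38% of genes were called, Nr4a2 differed by 1.53 ± 0.41 (adjusted p = 0.016) and Jun by -0.84 ± 0.25 (adjusted p = 0.0413). The call on Jun was lost with DESeq2's size factors (adjusted p = 0.0589), by limma-voom (0.0581) and with the replicate number as a block (0.0505). The difference in Fos, -1.34 ± 0.47, did not pass (adjusted p = 0.0977). For liver minus colon, where 10.8% of genes were called, Jun differed by -0.96 (adjusted p = 0.0048), Fos by -1.76 (adjusted p = 0.00629), Fosb by -1.98 (adjusted p = 0.0113) and Nr4a2 by 1.40 (adjusted p = 0.0134). By limma-voom Fos (adjusted p = 0.128) and Fosb (adjusted p = 0.237) did not pass, and the call on Fosb was also lost without the libraries of unusual share (-1.45, adjusted p = 0.0509). For colon minus hypothalamus, where 5.28% of genes were called, edgeR called 0 of the 10 genes, with Arc, at -1.63 ± 0.73 (adjusted p = 0.233), the 1 gene with an unadjusted p under 0.05, and limma-voom also called 0.

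Light cycles moved none of the 10 genes past the threshold. Over the 5 chow cycles, 98 tests of a gene in a tissue gave 0 calls in edgeR. The share of all genes called by the same test was 0.248% in liver, 0.119% in spleen, 0.0215% in mammary gland and 0% in the other 7 tissues. At an unadjusted p under 0.05 there were 16 of the 98, DESeq2 called 5 and limma-voom called 1. DESeq2 called 2 in spleen, where it called 12.6% of all genes, 2 in cecum (2.44%) and 1 in liver (1.09%). The call by limma-voom was in mammary gland, where it called 5.29% of all genes. Over the 5 antibiotics cycles, 30 tests gave 0 calls, against 0.00527% of genes in liver, 0.0163% in hypothalamus and 0.0211% in colon, with 7 at an unadjusted p under 0.05, 3 called by DESeq2 and 0 by limma-voom. Of all genes, DESeq2 called 0.04% there in liver, 0.147% in hypothalamus and 0.951% in colon. Contrasts between single cycles gave 0 calls in 490 tests on chow (57 at an unadjusted p under 0.05, 13 by DESeq2, 0 by limma-voom) and 0 in 150 under antibiotics (20, 5 and 1). Of the 65 such contrasts, 57 called 0 genes of any kind in edgeR, and the shares by the other tools are not given here. The edgeR share was 1.73% in chow liver between LD24/0 and LD0/24. Against LD12/12 it was 0.0287% for LD0/24 and 0.00478% for each of the other 3 cycles in inguinal fat, and 0.00717% for LD0/24 and 0.0358% for LD16/8 in mammary gland. In thymus between LD24/0 and LD0/24 it was 0.00449%.

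The smallest adjusted p over the chow cycles was that of Jun in liver, 0.124, and DESeq2 called it (adjusted p = 0.0227). In chow livers Jun averaged 13.9 ± 4.46 CPM at LD0/24 and 16.2 ± 6.21 CPM at LD8/16 (SD, n = 6 each). It had 11.1 ± 4.15 CPM on the LD12/12 cycle, 24.3 ± 9.80 CPM on LD16/8 and 30.9 ± 25.6 CPM on LD24/0. The long light cycles had the higher means, but the highest library at LD24/0, at 76.2 CPM, was one with a high mitochondrial share, and without such libraries that mean was 21.8 ± 14.3 CPM. In antibiotics livers Jun averaged 11.5 ± 1.22, 10.4 ± 5.06, 8.47 ± 2.24, 8.20 ± 3.38 and 9.06 ± 3.42 CPM in the same order, so that there the longer light cycles did not have the higher means. Fos in chow livers averaged 2.94 ± 4.72, 2.27 ± 3.74, 0.746 ± 0.312, 1.66 ± 1.62 and 3.39 ± 3.05 CPM. Without the libraries of unusual share these means were 1.16, 0.749, 0.659, 1.66 and 2.84 CPM. In that reduced set Fos (adjusted p = 0.0389), Fosb (0.013) and Nr4a1 (0.00673) passed the test over the chow cycles in liver, against 5.69% of all genes. All 3 calls rested on chow LD24/0 replicate 2, which had 7.97 CPM of Fos, 1.84 CPM of Fosb and 10.5 CPM of Nr4a1, where the other chow livers kept reached 4.58, 0.399 and 2.04 CPM. Without it edgeR called 0 of the 10 genes, against 4.79% of all genes, with adjusted p of 0.281 for Fos, 0.5 for Fosb and 0.74 for Nr4a1, and 0 genes had an unadjusted p under 0.05. Leaving out LD0/24 replicate 2 or 6 also ended the calls on Fos and Fosb, where 0.797% and 1.08% of all genes were called. The call on Fos was lost without any 1 of 12 of the 54 libraries, the others being LD8/16 replicates 2, 4 and 6, LD12/12 replicates 3, 4 and 5, LD16/8 replicate 1, and LD24/0 replicates 3 and 4, all on chow. The LD24/0 over LD0/24 difference in chow liver Jun was 1.15 ± 0.37 on the log2 scale and did not pass (adjusted p = 0.103).

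**Figure D3:**
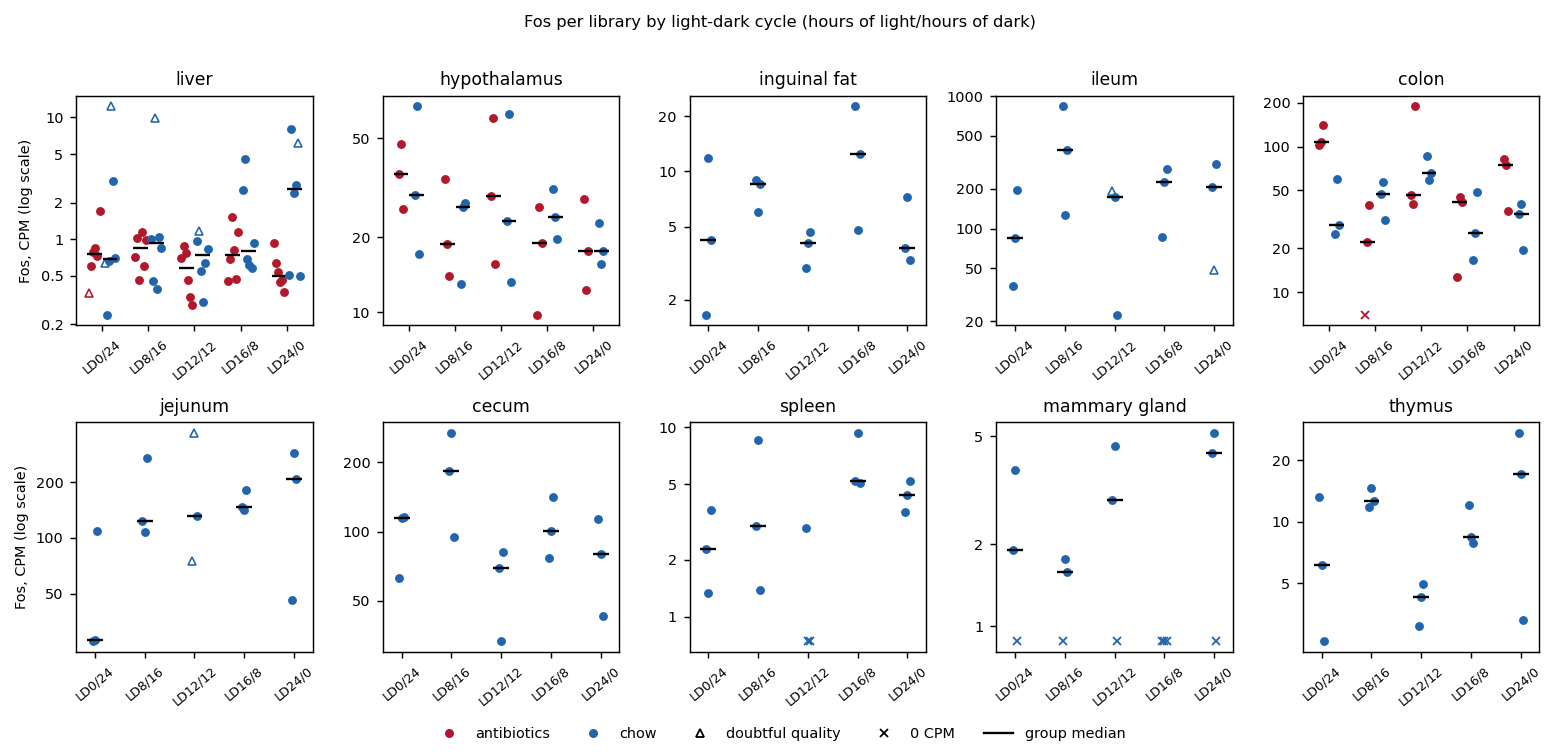
Fos in every library of each tissue by light cycle, in CPM on a log axis, with antibiotics left of chow where both exist. Points are libraries, bars are group medians, open triangles are libraries of unusual mitochondrial share, and crosses mark 0 CPM. Libraries of a cycle can lie far apart, for example at 17.2 to 67.3 CPM in chow hypothalamus at LD0/24.

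In hypothalamus, which receives light signals from the retina, the libraries of different cycles overlapped in Fos. At LD0/24 it had 35.9, 47.4 and 26.1 CPM in antibiotics libraries, against 29.5, 67.3 and 17.2 CPM in chow libraries. At LD12/12 it had 29.5, 60.7 and 15.7 CPM under antibiotics, against 23.3, 63 and 13.2 CPM on chow. At LD24/0 it had 28.7, 12.3 and 17.6 CPM under antibiotics, against 22.8, 15.6 and 17.7 CPM on chow. The highest of the libraries in constant light had 28.7 CPM, and most libraries of the other cycles also lay below that value. On chow, the LD24/0 over LD0/24 difference was -1.02 ± 0.57 for Fos on the log2 scale, with an adjusted p of 1. Arc under antibiotics had 16.8, 9.1 and 12.9 CPM at LD24/0, against 31.3, 74.6 and 17 CPM at LD12/12, a log2 difference of -1.67 ± 0.37 whose adjusted p was also 1 in edgeR. Over the antibiotics cycles DESeq2 called Arc (adjusted p = 0.00148), whereas edgeR gave 0.331.

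In the gut, the libraries of a cycle spread widely too. In jejunum Fos had 27.7, 28.1 and 109 CPM at LD0/24, 74.8, 369 and 131 CPM at LD12/12, and 46, 286 and 208 CPM at LD24/0 on chow, where the libraries with 74.8 and 369 CPM were those of unusual mitochondrial share. The LD0/24 libraries included the lowest values, but the ranges of these 3 cycles overlapped, and the test over the 5 cycles gave an adjusted p of 0.837. Klf4, with 73.5, 78.4 and 282 CPM at LD0/24 and 113, 419 and 266 CPM at LD24/0, was high and low in the same jejunum libraries. In ileum the highest Fos, 838 CPM, and the highest Klf4, 1250 CPM, came from LD8/16 replicate 1, where the other 2 libraries had 127 and 394 CPM of Fos. In cecum Fosb had 6.13, 13.2 and 9.68 CPM at LD8/16, against 3.90, 1.39 and 3.31 CPM at LD12/12, and the groups did not overlap. How many of all genes did not overlap there is not given here, and 0% were called in that contrast. Over the 5 cycles the adjusted p of Fosb was 0.665 in edgeR and 0.0146 in DESeq2. Arc in cecum went the same way, with 0.704, 1.52 and 0.799 CPM at LD8/16 and 0.343, 0.289 and 0.139 CPM at LD12/12 (adjusted p = 0.665 in edgeR and 0.019 in DESeq2).

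In antibiotics colon, Jun had 182, 168 and 90.6 CPM at LD0/24, against 47.4, 51.5 and 54 CPM at LD12/12. These 2 groups did not overlap. How many of all genes did not overlap there is not given here, and 0% were called in that contrast. On chow the order of Jun was the other way, with 51.1, 64.7 and 48.7 CPM at LD0/24 and 136, 68.4 and 95.8 CPM at LD12/12. DESeq2 called Jun over the antibiotics cycles (adjusted p = 0.0217), and edgeR did not. DESeq2 also called Arc there (adjusted p = 0.000452, against 0.22 in edgeR), where the library with 4225 detected genes had 29.3 CPM and every other antibiotics colon library at most 1.59 CPM. In thymus, Nr4a1 stayed between 34.1 and 55.1 CPM and Egr1 between 72.4 and 113 CPM over all 15 libraries. Fos, from 2.6 to 27.2 CPM, and Fosb, from 0.829 to 4.52 CPM, spread more widely there.

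Both spleen libraries of unusual mitochondrial share were at LD12/12, so share and cycle cannot be told apart in them. At LD12/12, replicates 2 and 3 held 55.2% and 50.9% mitochondrial RNA, with 0 and 0 CPM of Fos and of Arc, and 8.26 and 8.71 CPM of Nr4a2. Replicate 1 of the same group had 2.92 CPM of Fos, 5.17 CPM of Arc and 2.31 CPM of Nr4a2. Nr4a2 over the chow cycles of spleen had an adjusted p of 0.155 in edgeR and 6.63e-06 in DESeq2, which called 12.6% of all genes there. Leaving out replicate 1, so that only replicates 2 and 3 stood for LD12/12, gave 6 calls over the cycles, whereas leaving out any other spleen library gave 0. The share of all genes called without replicate 1 is not given here, so the 6 calls are not read as a result about these genes.

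Each gene had its own order of tissues on chow. Levels are CPM over the counts of genes not encoded in mitochondria, as mean ± SD over 15 libraries, or 30 in liver, and levels are compared for a gene between tissues only. Of 90 differences between neighbours in these orders, 32 passed a permutation test with adjustment over the 90. Tissues farther apart in an order were not compared. Fos was highest in ileum (225 ± 162), jejunum (204 ± 123) and cecum (124 ± 56.8), followed by colon (89.1 ± 35.1). From each of these tissues to the next, Fos did not differ past the threshold, and ileum was not compared with colon. It was lower in hypothalamus (29.6 ± 18.1) than in colon (adjusted p = 0.00015), and then in thymus (10.5 ± 7.20), mammary gland (9.56 ± 12.3), inguinal fat (7.70 ± 4.10), spleen (4.31 ± 3.22) and liver (2.50 ± 3.73). Fosb was highest in jejunum (19.2 ± 22) and lowest in liver (0.30 ± 0.493). Jun (177 ± 52.6) and Junb (165 ± 32.6) were highest in cecum. Jun was lowest in spleen (20.7 ± 8.98), where neither thymus (20.9 ± 5.72) nor liver (20.9 ± 16.5) differed from its neighbour, and Junb was lowest in mammary gland (11.5 ± 16). The highest mean of each AP-1 gene was thus in a gut tissue. For Junb that tissue was ileum, and not cecum, with all counts as the denominator or without the libraries of unusual share.

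Egr1 and Nr4a1, both known to be induced by T cell receptor signalling in developing T cells, were highest in thymus. Egr1 had 92.1 ± 10.8 there, above hypothalamus at 50 ± 18.5 (adjusted p = 0.00015), and the 8 further neighbour steps down to jejunum at 15.7 ± 17.3 did not pass. Nr4a1 had 49.4 ± 5.89 in thymus, above spleen at 31.3 ± 6.43 (adjusted p = 0.000112), and 1.62 ± 2.51 in liver. Relative to their means, both genes varied less among thymus libraries than among those of any gut tissue. Nr4a2, a gene of midbrain dopamine neurons that other neurons also use, was highest in hypothalamus (18.8 ± 5.56), above colon (7.48 ± 4.11, adjusted p = 0.000112), and lowest in liver (0.197 ± 0.124). Arc was highest in hypothalamus as well (14 ± 3.52), above thymus (10.8 ± 2.19, adjusted p = 0.0242), with liver again at the bottom (0.111 ± 0.0962). Klf4 had 819 ± 187 in cecum, above ileum at 442 ± 218 (adjusted p = 0.000346), and stayed at 335 ± 137 in colon, against 0.818 ± 0.559 in liver. Ier2 was highest in colon (124 ± 29.6) and lowest in hypothalamus (8.78 ± 3.14), but with all counts as the denominator spleen came first. By these means, liver was thus the lowest tissue for 6 of the 10 genes. The order by medians differs. In mammary gland Fosb, Nr4a1, Nr4a2 and Arc had a median of 0 counts, with 0 in 14, 10, 10 and 12 of 15 libraries. Their medians in liver, over both diets, were 9.5, 90, 25 and 10 counts. The mammary gland means of these genes thus rest on few libraries.

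**Figure D4:**
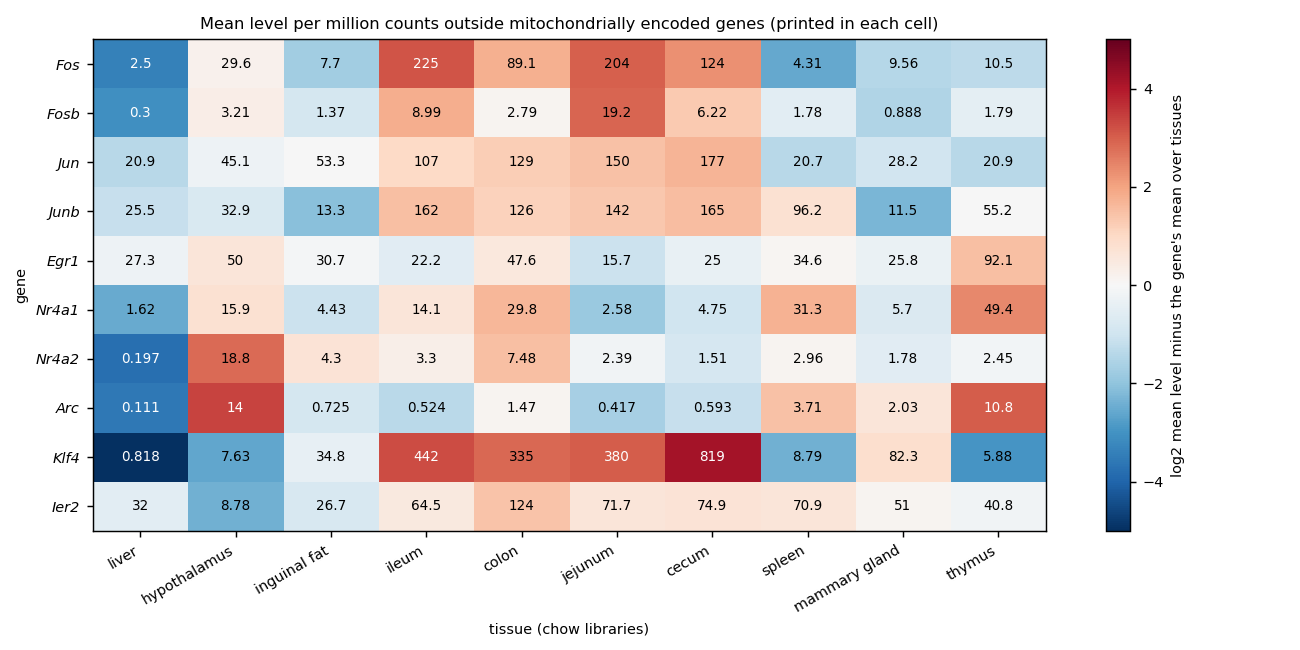
Level of each gene in chow libraries of the 10 tissues, in CPM over the counts of genes not encoded in mitochondria. Each cell prints the mean and its colour is the log2 difference from the gene's mean over tissues. Klf4 reads 819 in cecum and 0.818 in liver, and the gut columns hold the highest Fos, Jun and Junb values.

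In some tissues several of the genes rose and fell together with Fos from library to library, and in 4 tissues no relation with Fos passed. Fos was correlated with each other gene over log2 CPM after the mean of each diet and cycle group was removed, and a permutation test shuffled libraries within groups, with adjustment over all 88 relations. Of these, 27 passed and all 27 were positive. The share of all genes that would pass this test with Fos is not given here, so the counts do not set these genes apart. In hypothalamus (30 libraries) 7 of 9 passed, with a median r of 0.692. Junb (r = 0.899, rho = 0.896, adjusted p of r = 0.000293) and Egr1 (r = 0.888, rho = 0.885, adjusted p of r = 0.000293) followed Fos most closely, then Fosb (0.823), Nr4a1 (0.82), Arc (0.692), Klf4 (0.649) and Ier2 (0.595). Jun and Nr4a2 did not pass. Without the 2 libraries farthest from the median of Fos, r was 0.836 for Junb and 0.85 for Egr1, and 6 of the 9 passed. All 45 pairs of the 10 genes were positive in hypothalamus, with a median r of 0.553.

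In liver (60 libraries) 6 of 9 passed: Nr4a1 (r = 0.653, rho = 0.452), Ier2 (0.625, rho = 0.502), Egr1 (0.557, rho = 0.558), Fosb (0.555, rho = 0.386), Junb (0.476, rho = 0.435) and Jun (0.413, rho = 0.358), with adjusted p of r between 0.000293 and 0.0296. Nr4a2 and Klf4, the genes that rose under antibiotics, were not among them. Without the libraries of unusual share, 4 passed and r was 0.499 for Nr4a1 and 0.515 for Egr1. Of the 45 pairs in liver, 38 were positive, with a median r of 0.223. The jejunum had 6 of 9 (Klf4 0.91, Jun 0.854, Fosb 0.824, Junb 0.774, Ier2 0.757 and Egr1 0.734) and the ileum 4 of 9 (Klf4 0.856, Fosb 0.848, Jun 0.761 and Junb 0.756). In the ileum none of the 9 passed without the libraries of unusual share, or without the 2 farthest. The median r there was 0.522 with all libraries, 0.667 without those of unusual share and 0.499 without the 2 farthest. In colon Ier2 (r = 0.971) and Fosb (0.648) passed, and neither did without the 2 farthest libraries, where Ier2 had r = 0.725. Thymus had 2 of 9 (Fosb 0.886 and Jun 0.852), which were lost without the 2 farthest. Cecum, spleen, inguinal fat and mammary gland had none that passed, and the median r with Fos was 0.0904 in inguinal fat. Of the 45 pairs, 24 were positive in ileum and 25 in spleen. Across all tissues 14 relations passed without the 2 farthest libraries, 13 of them among the 27. In several tissues 1 library carried many of the highest values, 7 of 10 in ileum LD8/16 replicate 1 and 7 of 10 in jejunum LD8/16 replicate 3.

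**Figure D5:**
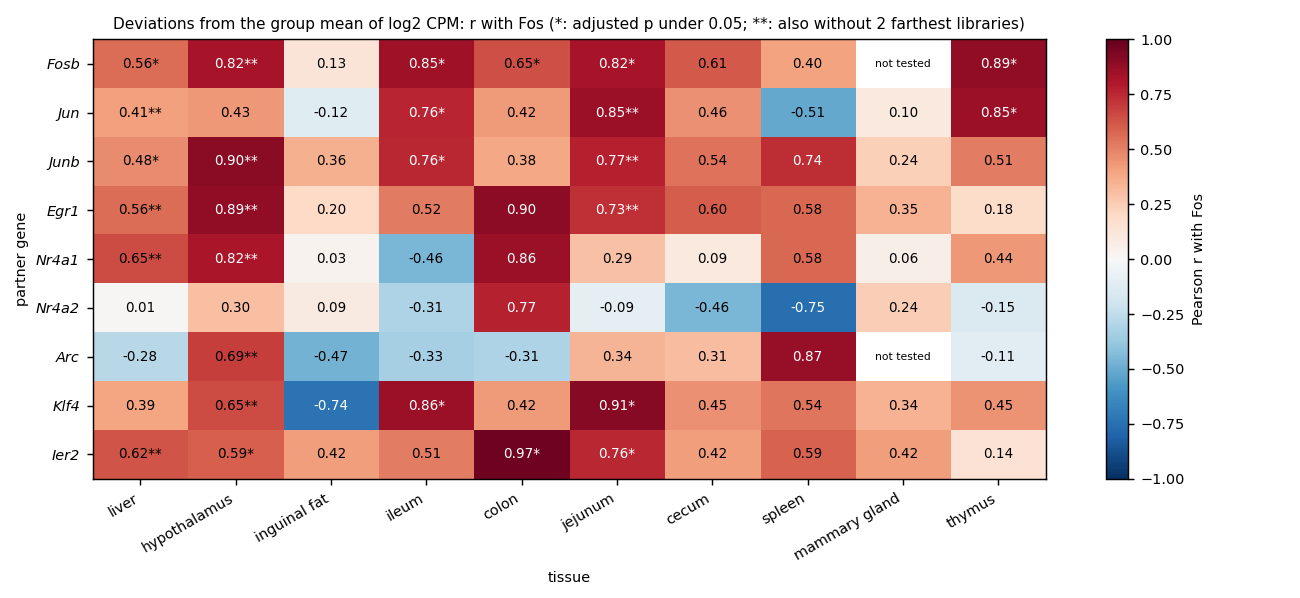
Pearson correlation of Fos with each other gene, over libraries after removal of group means, in each tissue. Each cell prints r, 1 star marks an adjusted permutation p under 0.05, and a pair of stars marks those that also passed without the 2 libraries farthest from the median of Fos. Hypothalamus, colon and jejunum hold the highest values, with Junb at 0.899 in hypothalamus and Klf4 at 0.91 in jejunum, and no value that passed is negative.

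The tested genes outside the 10 with the highest correlation with Fos are given here as a description with no test. In hypothalamus these were Dusp1, a phosphatase that switches off MAP kinases (r = 0.913), Btg2 (0.897), LOC118567915 (0.785), Gm34857 (0.759) and Clp1 (0.729). In liver they were Ppp1r15a, a regulator of translation under stress (0.698), Dusp1 (0.692), Ccn1 (0.648), Bbs2 (0.647) and Gadd45b (0.635). Without the libraries of unusual share the liver genes were Dusp1 (0.623), Btg2 (0.587), Ppp1r15a (0.564), Il1b (0.546) and Zfp36l1 (0.51). Dusp1 was thus in the first 2 in both tissues and in both liver sets.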

How the data were processed

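Per the labels' protocols, a TRIzol reagent was used for total RNA and a SMARTER mRNA-Seq kit for the libraries. The tools were StringTie 2.2.1, HISAT2 2.1.0 and SAMtools 1.10 with build GRCm39, per the submitters' processing notes. The authors deposited a table of estimated counts per gene, all whole numbers, for 228 libraries. Multiples of 4 were in surplus (146169 values of 4, against 86362 of 3 and 66707 of 5), so values divided by 4 and rounded were tried as an alternative. In cecum 3 columns held identical values (replicate 1 of the chow groups LD0/24, LD8/16 and LD16/8) and were left out. The 2 rows that name no gene held at most 0.114% of a library and were left out. The sources used here do not give strandedness.

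Each tissue was fitted alone with edgeR 4.0.16 in R 4.3.3, with TMM scaling, its filter on low counts and the robust quasi-likelihood test, with a term for each diet and cycle group, and p-values were adjusted over all genes of the tissue by the Benjamini-Hochberg method at a threshold of 0.05. The release's default version of that fit was used, so the alternative is the newer version. DESeq2 1.42.0 and limma-voom (limma 3.58.1) were the other tools. CPM are TMM-scaled, and correlations used log2 CPM with a prior count of 2. Same-numbered libraries did not deviate together (mean r between -0.0305 and 0.0958 by tissue), so no block was used. Correlations and tissue levels were tested with 100000 permutations. The fits and the correlation test were checked on simulated data. The genes and gene lists were chosen with earlier results of these data known. Besides the 10 genes, up to 8 other immediate early genes and 4 upstream regulators with the smallest adjusted p that passed were named, and the 5 genes most like Fos. The newer quasi-likelihood version, the comparison within each cycle, the fits without mitochondrially encoded genes, and the liver fits without the libraries of unusual share and 1 further library were added after the data were seen.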

Additional observations from a re-analysis of the deposited data

Results flagged for a closer look

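In liver groups of 6 libraries, 22 of 100 combinations of a gene and a group had a library whose gap to its nearest neighbour was large for the group's range. The limit was set for about 1 in 20 in independent, normally distributed values. CPM of genes that vary together are not such values, so the count cannot be set against that rate. In 21 it was the highest library and in 1 the lowest, and 10 were in libraries of unusual mitochondrial share.

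Several of these values came from the same libraries. Antibiotics LD0/24 replicate 6 had 1.71 CPM of Fos and 36.1 CPM of Egr1, and replicate 5 had 1.35 CPM of Nr4a2. At LD12/12, replicate 1 had 2.83 CPM of Klf4 and replicate 5 had 24.7 CPM of Egr1. At LD16/8, replicate 2 had 28.9 CPM of Junb and 60.9 CPM of Egr1. At LD24/0, replicate 3 had the lowest Ier2 of its group, 13.1 CPM.

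On chow, the libraries LD0/24 replicate 4 and LD8/16 replicate 3 had an unusual mitochondrial share, of 58.3% and 41%. The first had 12.4 CPM of Fos, 1.08 CPM of Fosb and 79 CPM of Egr1. The second had 9.88 CPM of Fos, 1.33 CPM of Fosb, 44.5 CPM of Junb, 7.74 CPM of Nr4a1 and 59.5 CPM of Ier2. Chow LD24/0 replicate 5, with a share of 48.2%, had 116 CPM of Junb and 75.8 CPM of Ier2. Of the libraries with a usual share, chow LD12/12 replicate 6 had 46.5 CPM of Egr1, and chow LD24/0 replicate 2 had 1.84 CPM of Fosb, 10.5 CPM of Nr4a1 and 2.09 CPM of Klf4. Whether the mitochondrial share plays a part in these values was not tested.

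The antibiotics effect differed between tissues, by the joint fit, in 6 cases. For liver minus hypothalamus these were Nr4a2 (1.53 on the log2 scale) and Jun (-0.84). For liver minus colon they were Nr4a2 (1.40), Jun (-0.96), Fos (-1.76) and Fosb (-1.98). Fosb did not pass without the libraries of unusual share (-1.45, adjusted p = 0.0509), Fos and Fosb did not by limma-voom, and Jun for liver minus hypothalamus did not under 3 of the alternatives.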

How the results depend on the processing

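Over the alternatives, 293 counts of called genes and relations stayed within 1.5 times the reported count and 26 did not, and with 1 library left out 963 did and 21 did not. Most reported counts were 0, and a 0 that stayed 0 was scored as the same, so this tally is no measure of robustness. Among counts above 0, the 8 in liver stayed within that limit in 60 of 60 fits with 1 library left out. The 1 in hypothalamus did in 17 of 30, and the 3 over the chow cycles in the reduced liver set did in 51 of 54. The reported 8 calls between antibiotics and chow in liver became 5 by limma-voom and 5 without the libraries of unusual mitochondrial share, and ran from 6 to 8 with 1 library left out. Of all genes, 27.8% were called there by limma-voom and 36% without the libraries of unusual share. Fos, Jun, Egr1, Ier2, Nr4a2 and Klf4 kept their liver calls whichever of the 60 libraries was left out. With the mitochondrial share as a covariate Fosb (adjusted p = 0.283) and Junb (0.192) were lost. The 1 call in hypothalamus became 2 by DESeq2, 0 by limma-voom and 2 with the covariate, and ran from 0 to 2 with 1 library left out. Of all genes, 18.7% were called there by DESeq2, 13.6% by limma-voom and 34% with the covariate. The 27 correlations with Fos became 14 without the 2 libraries farthest from the median of Fos.

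The counts of 0 over the cycles became, by DESeq2, 1 in chow liver, 1 in antibiotics hypothalamus, 2 in antibiotics colon, 2 in cecum and 2 in spleen, and by limma-voom 1 in mammary gland. The shares of all genes were 1.09%, 0.147%, 0.951%, 2.44% and 12.6% by DESeq2 in that order, and 5.29% by limma-voom. Without the libraries of unusual share there were 3 in chow liver, which ran from 0 to 3 with 1 further library left out and were 0 without chow LD24/0 replicate 2. For contrasts between single cycles, DESeq2 gave 1 in chow liver, 1 in antibiotics hypothalamus, 4 in antibiotics colon, 1 in jejunum, 3 in cecum, 7 in spleen and 1 in mammary gland. There, chow liver had 1 with the covariate and 2 without the libraries of unusual share. Chow colon had 1 with chow libraries fitted alone, and antibiotics colon had 1 by limma-voom. Spleen had 3 with the newer quasi-likelihood version and 3 with values divided by 4. The shares of all genes called in single contrasts by DESeq2 and under these alternatives are not given here. These counts are thus not read as results about the immediate early genes. With 1 library left out, the ranges were 0 to 1 for single contrasts in chow liver and antibiotics colon, 0 to 1 over the antibiotics cycles in hypothalamus, and 0 to 6 over the cycles and 0 to 25 for single contrasts in spleen, where the high values came without LD12/12 replicate 1. The cause was not tested, and the share of all genes called without that library is not given here. The replicate number as a block changed 0 of 33 counts and 1 gene's call, that of Jun for liver minus hypothalamus (adjusted p = 0.0505).

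Depth limits the low genes. In liver, Fosb, Arc and Nr4a2 had medians of 9.5, 10 and 25 estimated counts per library, so differences in them rest on few counts, and Fosb and Arc were not tested with values divided by 4.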
